A study of Mus musculus with 10 samples.

Results

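The 569 genes described here are those of mouse chromosome 10 with a probe well above background throughout the 10 arrays. They were 569 of the 12161 genes on chromosomes 1 to 19 and X that met the same condition. Each gene was represented by its brightest probe, and the genes were ordered by the probe's start on the mm9 build. The chromosome, and the lines Mes1 and Epi1 within it, were chosen by the Mes minus Epi differences and line signals of these same arrays. All signals on this chromosome are therefore given as a description. Genes called by limma are counted in the same way, and the counts are no test of the chromosome or of these lines.

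The arrays compared 5 Mes lines with 5 Epi lines of mouse non-NE small cell lung cancer (SCLC without neuroendocrine features), a tumour modelled in mice by deleting the retinoblastoma and p53 genes. Every line, Mes and Epi alike, carried the background labelled RbL/L, Trp53L/L, was grown in RPMI1640 with 10% FBS without treatment, and descended from a single clone. The labels do not spell out the group names, the promoter that drove recombination, or whether any lines share a tumour, so the spread between lines is that of these clones. RNA of each line was hybridised to 1 Agilent array with the dye Cy3, and signals are given as log2 of the quantile-normalised intensity, in which a difference of 1 stands for a doubling.

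All 8 mesenchymal markers (Vim, Fn1, Cdh2, Zeb1, Zeb2, Twist1, Snai2 and Col1a1) were above background on all 10 arrays. Passing does not mean equal levels: Col1a1 had a mean signal of 5.01 in Mes lines and 12.41 in Epi lines. Zeb2, in the other direction, had 11.03 and 10.05. None of the 7 epithelial markers was, and Epcam and Cldn4 were above background on no array. Krt7 passed on 1 of the 5 Mes arrays and on all 5 Epi arrays, and Cdh1 passed on 0 Mes arrays and on 3 Epi arrays. The neuroendocrine markers Syp and Uchl1 passed on all 10 arrays, and Insm1 and Neurod1 passed on none. The defining leukocyte marker Ptprc passed on 0 Mes arrays and 1 Epi array, and the endothelial markers Pecam1 and Cdh5 passed on none. Other markers of such cells did pass: Cd68 and Cd3e on all 10 arrays, Cd79a on 4 Mes arrays and 1 Epi array, and Kdr on 4 Mes arrays and 2 Epi arrays. Their part in the results was not tested. Between 60.4% and 64.5% of the probes of an array were well above background, and no spot was saturated.

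Genes that lie next to each other on a chromosome share its DNA, so that in tumour cells, where whole chromosomes or long stretches are often gained or lost, the number of templates can change for many genes at a time. Expression also follows each gene's own promoter and the factors that read it, and tumour clones can therefore differ both along stretches of a chromosome and gene by gene. Mouse chromosome 10 carries genes for cell cycle and growth control such as Cdk4, Mdm2 and Lats1, for matrix and adhesion such as Col6a1, Col6a2 and Itga7, and for signalling such as Egr2, Dusp6 and Ifngr1. DNA copy number was not measured in these files, and its part in the results was not tested.

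The promoters of 4 members are printed because the description turns on them. Arfgef3 and Tnfaip3 are the nearest members on either side of the break in the profile that had a promoter in the RefSeq table of GRCm38.p6, and, among genes whose lines did not overlap and leaving out identifier-only names, Egr2 was the farthest below and Ddit4 the farthest above. Each sequence runs 5′ to 3′ from 250 bases before to 50 bases after a transcription start. Capitals mark CCAAT (read by NF-Y), the GC box GGGCGG (read by Sp factors) and the TATA box TATAAA on either strand, which on the opposite strand appear as ATTGG for the first, as CCGCCC for the second and as TTTATA for the last. The table listed 5 starts for Egr2 and 2 for Tnfaip3, of which the first listed is shown. On GRCm38.p6, whose coordinates differ from those of mm9, the Arfgef3 window is chr10:18743709-18744008, minus strand, the Tnfaip3 window chr10:19015361-19015660, minus strand, the Egr2 window chr10:67535249-67535548, plus strand and the Ddit4 window chr10:59951721-59952020, minus strand.
Arfgef3: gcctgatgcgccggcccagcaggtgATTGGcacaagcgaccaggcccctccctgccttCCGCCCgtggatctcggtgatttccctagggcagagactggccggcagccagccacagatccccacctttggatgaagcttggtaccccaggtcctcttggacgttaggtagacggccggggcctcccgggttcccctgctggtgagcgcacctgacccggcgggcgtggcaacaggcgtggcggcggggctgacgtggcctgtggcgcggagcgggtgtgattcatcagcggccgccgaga
Tnfaip3: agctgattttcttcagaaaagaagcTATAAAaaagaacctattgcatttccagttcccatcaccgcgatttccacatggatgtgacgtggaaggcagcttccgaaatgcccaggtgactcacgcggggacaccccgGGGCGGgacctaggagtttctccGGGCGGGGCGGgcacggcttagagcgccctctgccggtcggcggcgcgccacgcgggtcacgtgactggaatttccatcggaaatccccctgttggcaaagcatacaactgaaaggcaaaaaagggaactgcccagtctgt
Egr2: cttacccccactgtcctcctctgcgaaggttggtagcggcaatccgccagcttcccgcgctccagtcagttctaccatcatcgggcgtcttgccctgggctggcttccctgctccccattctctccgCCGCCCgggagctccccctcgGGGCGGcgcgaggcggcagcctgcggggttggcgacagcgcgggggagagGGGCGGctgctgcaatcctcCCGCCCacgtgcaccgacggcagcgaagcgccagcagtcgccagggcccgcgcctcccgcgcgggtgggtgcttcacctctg
Ddit4: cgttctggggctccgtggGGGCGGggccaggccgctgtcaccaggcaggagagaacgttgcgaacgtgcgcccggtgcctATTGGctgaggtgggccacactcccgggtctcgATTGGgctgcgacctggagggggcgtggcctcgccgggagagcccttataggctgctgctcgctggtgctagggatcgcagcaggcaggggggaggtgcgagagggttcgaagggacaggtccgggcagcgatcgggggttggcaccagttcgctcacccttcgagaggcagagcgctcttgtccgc
The windows held 25 CpG in Arfgef3, 22 in Tnfaip3, 32 in Egr2 and 26 in Ddit4. Ddit4 held 2 CCAAT matches and 1 GC box, Egr2 held 4 GC boxes, Tnfaip3 held 3 GC boxes (a pair of them overlapping) and 1 TATAAA, and Arfgef3 held 1 CCAAT match and 1 GC box. Windows were found for 467 of the 569 members, and 70.7% of these held a GC box, 37.5% a CCAAT match and 6.85% a TATA box, against 65.0%, 39.6% and 7.37% of the 8946 windows of measured genes on the other chromosomes. Over all 27025 windows of the table the shares were 35.9%, 37.9% and 14.2%. The members had a median of 24 CpG per window, and the 156 members with the lowest Mes minus Epi differences, the 155 in the middle and the 156 with the highest had medians of 23, 24 and 25 CpG, so the windows at the extremes of the profile were alike in this measure.

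Chromosome 10 genes had lower signals in Mes lines along nearly the whole chromosome. The median Mes minus Epi difference over the 569 genes was -0.46 on the log2 scale, a ratio of 0.725, with quartiles of -0.81 and -0.11, and the median over the other chromosomes was 0.05. Differences ran from -4.97 to 3.12, and 456 of the 569 genes (80.1%) had a mean below 0, against 47.9% of all genes measured. In RNA pooled from a culture, fewer cells with a transcript and less transcript per cell cannot be told apart. With limma at an adjusted p threshold of 0.05, 218 of the 569 (38.3%) were called lower in Mes lines, where 12% of all genes were (1456 of 12161), and 14 (2.46%) were called higher, where 15.2% of all genes were. The other 337 were not called. All 5 Mes lines lay below all 5 Epi lines in 118 genes (20.7%, with 7.82% over all genes) and above them in 9 genes (1.58%, with 10.3% over all genes). These counts describe the chromosome that was chosen for them and support nothing further.

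The medians of the other chromosomes ran from -0.19 on chromosome 19 to 0.71 on chromosome 9, and chromosome 4 stood at 0.54. The share of genes called lower ran from 1.74% on chromosome 9 to 21.0% on chromosome 19. Chromosome 10 was thus the lowest of the 20 chromosomes measured, as the plot of medians by chromosome shows.

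**Figure D1:**
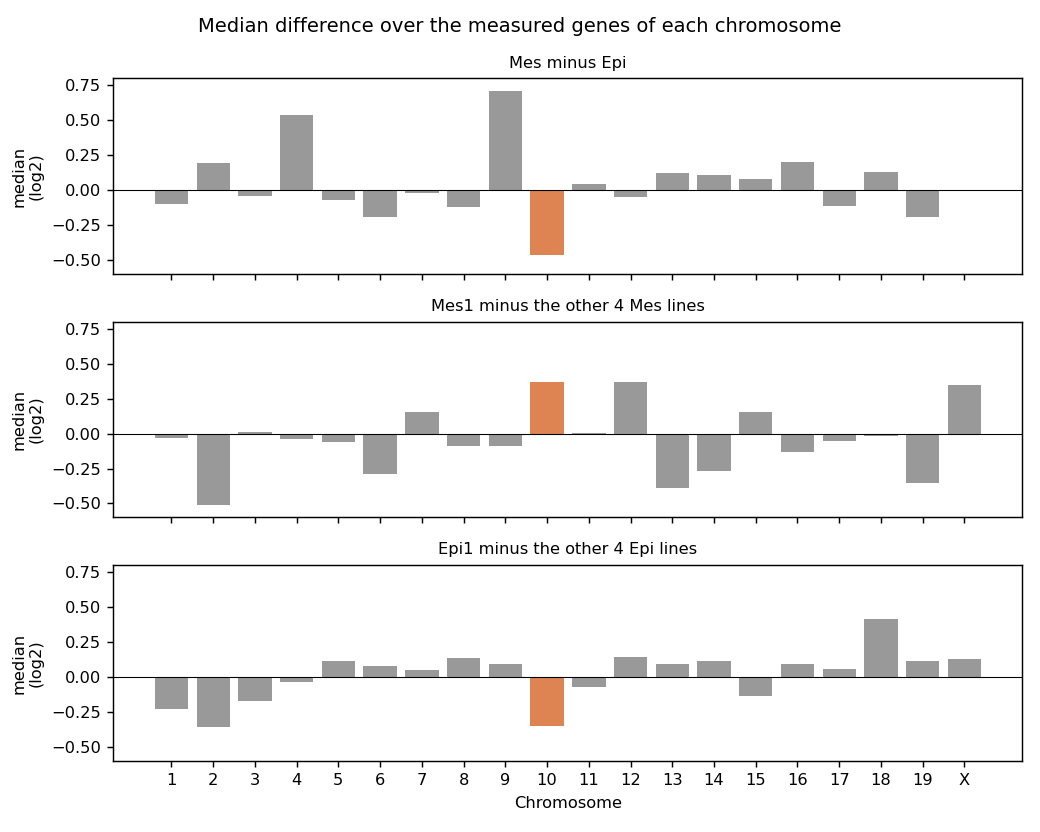
Median log2 difference over the measured genes of each chromosome, for Mes minus Epi lines (top), Mes1 minus the mean of the other 4 Mes lines (middle) and Epi1 minus the mean of the other 4 Epi lines (bottom). Chromosome 10 (orange) stands at -0.46, 0.37 and -0.35, and chromosomes 12 and X are also high in Mes1 and chromosome 2 low in both Mes1 and Epi1.

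Slides could not be fully separated from the groups. Slide 1 held Epi1, Epi3, Epi4 and Epi5, slide 3 held Mes1, Mes2 and Mes5, and only slide 2 held both groups, with Mes3, Mes4 and Epi2. On slide 2 alone the median over chromosome 10 was -0.63, with 473 of the 569 genes (83.1%) below 0. Slide 2 held only Epi2 of the Epi lines, so no counts of called genes are given for it alone. With slide as a fixed block, which takes the difference from the same 3 arrays, the median was -0.63 and limma called 5 genes lower and 0 higher, with 0.164% and 0.296% of all genes called. At an unadjusted p under 0.05 that fit had 160 lower (28.1%) and 5 higher (0.879%), where 7.74% and 9.73% of all genes were. The 5 called genes were Nt5dc1, 2310011J03Rik, Ncln, Lrp1 and Itga7, named here after their values were seen. With slide as a random block the estimated correlation within slides was -0.0434, so that fit adjusted very little for slide. Its counts are not given, for want of a share over all genes to set beside them.

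Mes1 and Epi1 stood apart from the other 8 lines, as the plot of each line's signal shows. Taking each gene relative to its mean over the 10 lines, the median over chromosome 10 was 0.06 in Mes1, -0.28 in Mes2, -0.27 in Mes3, -0.29 in Mes4 and -0.34 in Mes5, against -0.05 in Epi1, 0.33 in Epi2, 0.32 in Epi3, 0.29 in Epi4 and 0.30 in Epi5. Mes1 was the highest Mes line by a wide margin and Epi1 the lowest Epi line, and Mes1 stood above Epi1, so the groups overlapped through this pair. The group means were -0.22 ± 0.16 in Mes lines and 0.24 ± 0.16 in Epi lines (SD, n = 5 each).

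Between single lines, the median difference over chromosome 10 was -0.66 to -0.56 in the 16 pairs of Mes2 to Mes5 with Epi2 to Epi5. It was -0.28 to -0.24 for Mes1 minus each of Epi2 to Epi5, and -0.28 to -0.20 for each of Mes2 to Mes5 minus Epi1. Mes1 minus Epi1 was 0.12. Without Mes1 and Epi1 the median Mes minus Epi difference was -0.62, and limma called 292 of the 569 genes lower (13.2% of all genes) and 13 higher (16.0% of all genes). Both lines had been chosen for their departure on this chromosome, so the wider difference restates that choice and is no test of it.

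**Figure D2:**
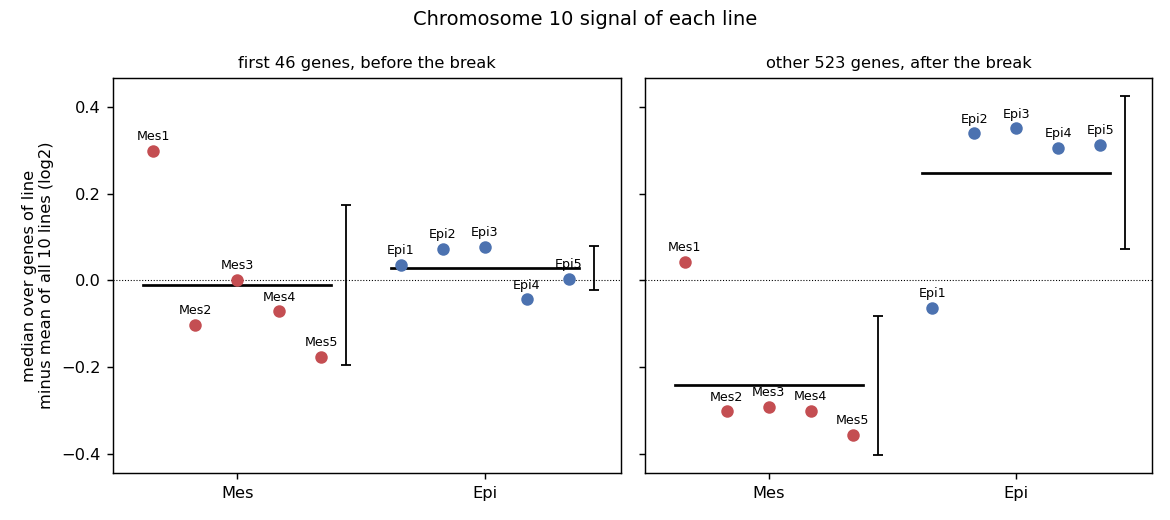
Median over chromosome 10 genes of each line's signal minus the mean of all 10 lines (log2), for the 46 genes before the break in the profile (left) and the 523 after it (right). Points are lines, horizontal bars group means and error bars 1 SD over 5 lines. After the break Mes1 (0.04) lies above Epi1 (-0.06), between the other Mes lines (-0.36 to -0.29) and the other Epi lines (0.31 to 0.35).

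Mes1 exceeded its group on most of the chromosome. Its median difference from the mean of the other 4 Mes lines was 0.37, a ratio of 1.29, and that over the other chromosomes was -0.07. Mes1 was above every other Mes line in 335 of the 569 genes (58.9%, with 23.5% over all genes) and below every other in 42 (7.38%, with 31.0% over all genes). The same measure was -0.08 in Mes2, -0.05 in Mes3, -0.06 in Mes4 and -0.12 in Mes5. Against the 2 Mes lines of its own slide, Mes1 differed by a median of 0.38. Chromosome 10 was not alone in this line: its medians on the other chromosomes ran from -0.51 on chromosome 2 to 0.37 on chromosome 12, with 0.35 on chromosome X.

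Epi1 fell short of its group over a nearly equal share of genes. Its median difference from the other 4 Epi lines was -0.35, a ratio of 0.784, and that over the other chromosomes was 0.01. Epi1 was below every other Epi line in 329 of the 569 genes (57.8%, with 23.7% over all genes) and above every other in 40 (7.03%, with 22.8% over all genes). The other Epi lines stood at 0.09 in Epi2, 0.12 in Epi3, 0.06 in Epi4 and 0.10 in Epi5. Against the 3 Epi lines of its own slide, Epi1 differed by a median of -0.36. Its medians on the other chromosomes ran from -0.36 on chromosome 2 to 0.42 on chromosome 18.

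The spread of single genes also reflected these lines. The median SD per gene among Mes lines was 0.32 on chromosome 10 and 0.31 on the others, and without Mes1 it was 0.24 and 0.26. Among Epi lines it was 0.30 on chromosome 10 and 0.29 on the others, and without Epi1 it was 0.23 and 0.27. The difference was also smaller in dim genes: the median was -0.31 in the dimmest 190 genes, -0.50 in the middle 189 and -0.56 in the brightest 190. Mes1 stood 0.26, 0.40 and 0.40 above its group in the same sets, and Epi1 differed from its group by -0.27, -0.39 and -0.39.

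Along the chromosome, the Mes minus Epi profile split at a single position between the first genes and the rest. Segmentation by absolute deviations from segment medians, with a BIC penalty, placed the break between Arfgef3 at 18.42 Mb and Perp at 18.58 Mb. Its place depended on the settings: a squared-error cost gave 0 breaks, normexp background correction gave 3, the first at 21.09 Mb, and keeping dim probes gave 2, at 68.67 and 85.44 Mb. The 46 genes before it (3.23 to 18.42 Mb) had a median of 0.04, with 22 of them below 0. Of these 46, 5 (10.9%) were called lower and 4 higher, near the 12% of all genes called lower and below the 15.2% called higher. The 523 genes after the break (18.58 to 128.40 Mb) had a median of -0.49, a ratio of 0.710, with 434 below 0 (83.0%), 213 called lower (40.7%) and 10 called higher. The longest unbroken run of genes below 0 after the break was 23 genes, and the longest above 0 was 4.

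**Figure D3:**
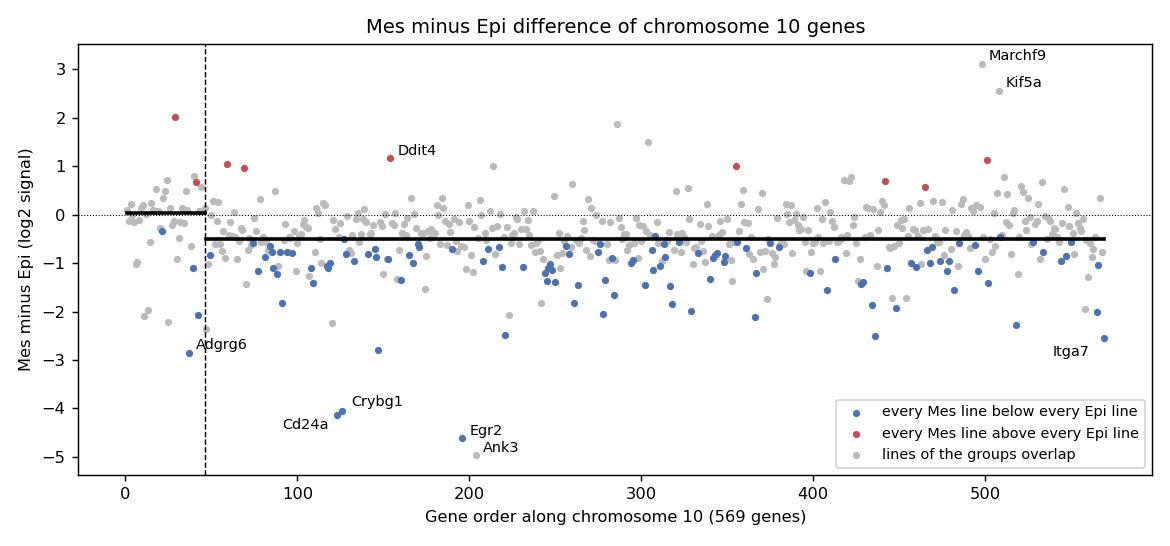
Mes minus Epi difference (log2 signal) of each of the 569 genes in order along chromosome 10. Colours show genes whose 5 Mes and 5 Epi lines do not overlap, the dashed line is the break and the heavy lines are the medians before it (0.04) and after it (-0.49).

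Windows of 10 Mb gave the same picture. The median was 0.04 in the first window (24 genes) and -0.14 in the second (27 genes), which holds the break. The other windows, from 20 Mb on, lay between -0.69 (30 to 40 Mb, 24 genes) and -0.31 (100 to 110 Mb, 8 genes). The gene-rich windows of 70 to 80 Mb and 80 to 90 Mb, with 102 and 98 genes, each stood at -0.57, and the last window, with 88 genes, at -0.37.

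The lines behaved differently at the start of the chromosome. Before the break, the medians relative to all 10 lines were 0.30 in Mes1, -0.10 in Mes2, 0.00 in Mes3, -0.07 in Mes4 and -0.18 in Mes5, against 0.04 in Epi1, 0.07 in Epi2, 0.08 in Epi3, -0.04 in Epi4 and 0.00 in Epi5. Mes1 was the highest of all lines there, and Epi1 lay among the other Epi lines. Group means before the break were -0.01 ± 0.18 in Mes lines and 0.03 ± 0.05 in Epi lines (SD, n = 5 each). After the break they were -0.24 ± 0.16 in Mes lines and 0.25 ± 0.18 in Epi lines.

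Mes1 was thus above its group on both sides of the break. It was above the mean of the other 4 Mes lines in 41 of 46 genes before it (89.1%) and in 417 of 523 after it (79.7%). Its profile had no break, and its 10-Mb windows lay between 0.19 and 0.54 above the other Mes lines. The other 4 Mes lines had no break either.

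Epi1 was the line whose departure began partway along. It was below the mean of the other 4 Epi lines in 16 of 46 genes before the break (34.8%) and in 449 of 523 after it (85.9%). Its own profile split into 4 stretches: 37 genes from Cnksr3 to Adgrg6 (3.23 to 14.12 Mb) at a median of 0.14, 136 genes from Vta1 to Aifm2 (14.38 to 61.20 Mb) at -0.30, 247 genes from Tspan15 to Ndufa12 (61.65 to 93.68 Mb) at -0.47, and 149 genes from Tmcc3 to Itga7 (94.05 to 128.40 Mb) at -0.31. The first of these breaks lay between 14.38 and 33.65 Mb over the alternatives run, and their number between 1 and 3. Among the other Epi lines only Epi4 had a break, before Rps12 at 23.51 Mb, with -0.17 before it and 0.07 after it.

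**Figure D4:**
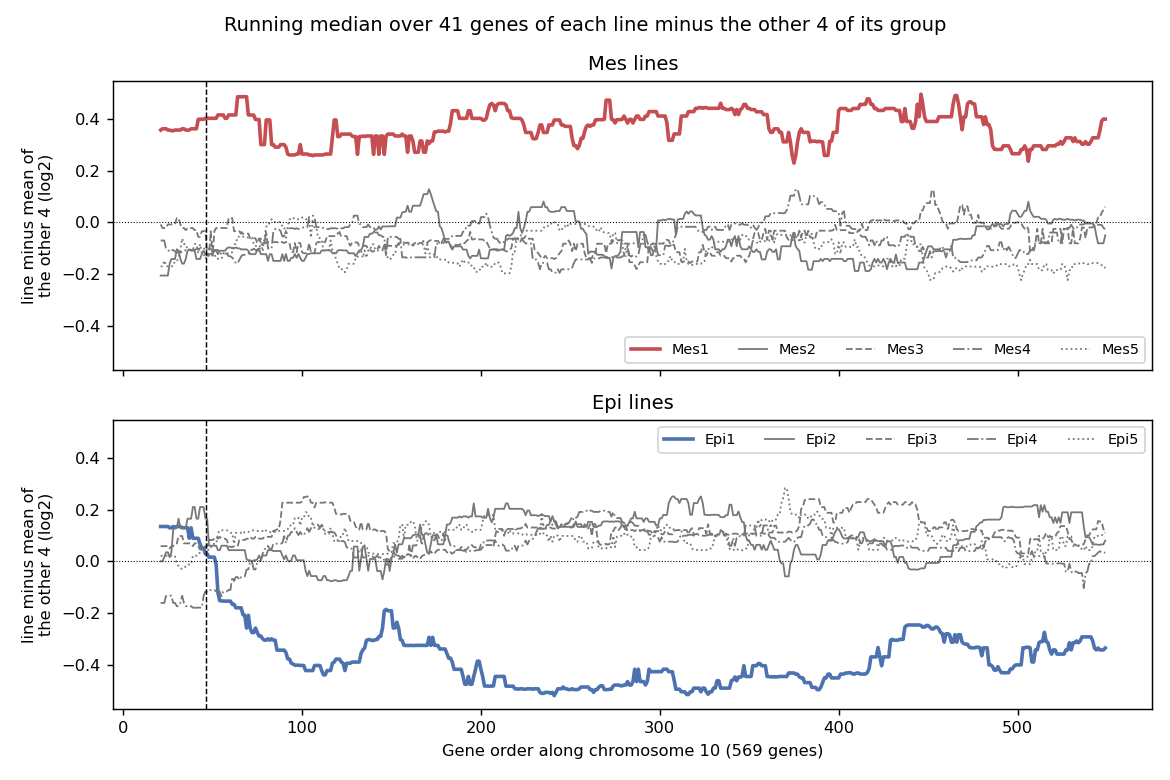
Running median over 41 neighbouring genes of each line minus the mean of the other 4 lines of its group (log2), in gene order along chromosome 10, for Mes lines (top) and Epi lines (bottom). The dashed line is the break of the Mes minus Epi profile. Mes1 runs above the other Mes lines throughout, and Epi1 starts with the other Epi lines and lies below them after the break.

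The genes beside the break were read by line. Arfgef3, the last before it, had signals of 5.09, 5.30, 4.99, 4.82 and 5.30 in Mes1 to Mes5, against 4.85, 4.95, 4.93, 5.09 and 5.02 in Epi1 to Epi5, a difference of 0.13 with overlapping groups. Nhsl1 and Ccdc28a, the preceding members, differed by 0.07 and 0.56, and Arfgef3 and Nhsl1 by -0.05 and -0.50 on slide 2. Perp, a p53 target that forms part of desmosomes, had 7.84, 11.21, 9.30, 12.28 and 12.38 in Mes1 to Mes5, against 13.13, 13.57, 13.49, 11.39 and 13.25 in Epi1 to Epi5. Its difference of -2.36 was far larger than the step of the profile, and Epi4 lay within the range of the Mes lines. Tnfaip3, which encodes the NF-kB inhibitor A20, differed by -1.02 with overlapping groups, and by -2.77 on slide 2. Ifngr1, the ligand-binding chain of the interferon gamma receptor, had 10.78, 10.31, 10.40, 9.96 and 10.33 in Mes1 to Mes5, against 10.84, 11.39, 11.42, 11.09 and 11.17 in Epi1 to Epi5. Its Mes lines all lay below its Epi lines, with Mes1 the highest Mes line and Epi1 the lowest Epi line.

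At the breaks of the Epi1 profile, single genes stepped less evenly. Epi1 minus the other Epi lines was 0.69 in Aig1, 0.33 in Hivep2 and 0.23 in Adgrg6 before the first break, then -0.81 in Vta1 and 0.33 in Cited2. It was -0.32 in Sar1a, -0.64 in Tysnd1 and -0.23 in Aifm2, then -0.86 in Tspan15, -0.47 in Hk1 and -0.51 in Supv3l1. At the last break it was -1.15 in Fgd6, -0.85 in Nr2c1 and -0.43 in Ndufa12, then 0.19 in Tmcc3 and 0.48 in Cep83os. Cited2 after the first break, and Tmcc3 and Cep83os after the last, thus went against their stretch.

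Several genes lay far below the level of the chromosome. Egr2, a zinc-finger transcription factor of the early growth response family at 67.00 Mb, had 7.73, 5.36, 3.63, 7.17 and 5.48 in Mes1 to Mes5, against 10.19, 9.89, 11.56, 10.13 and 10.68 in Epi1 to Epi5. Its means were 5.88 ± 1.62 in Mes lines and 10.49 ± 0.66 in Epi lines (SD, n = 5 each), which made it 24.5-fold lower in Mes lines, a log2 difference that was -2.82 with normexp. Cd24a, a surface glycoprotein at 43.30 Mb, had 8.53, 10.81, 10.41, 3.70 and 9.79 in Mes1 to Mes5, against 12.88, 12.72, 13.05, 12.96 and 12.29 in Epi1 to Epi5. Mes4 accounted for much of its Mes spread, while the Epi lines lay close together. Crybg1, a protein with crystallin-type domains at 43.67 Mb, had 5.42, 7.97, 7.86, 8.44 and 10.38 in Mes1 to Mes5, against 11.84, 11.70, 12.74, 13.06 and 11.01 in Epi1 to Epi5. Here Mes1 was the lowest Mes line, contrary to its place on most of the chromosome.

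Adgrg6, an adhesion G protein-coupled receptor at 14.12 Mb, lay before the break and yet had 7.67, 6.72, 7.65, 6.48 and 8.42 in Mes1 to Mes5, against 10.42, 10.23, 10.53, 9.64 and 10.36 in Epi1 to Epi5, a difference of -2.85. Dusp6, a phosphatase that switches off ERK, had 9.21, 9.32, 9.08, 7.99 and 8.18 in Mes1 to Mes5, against 12.64, 10.45, 11.49, 10.72 and 10.97 in Epi1 to Epi5. Epi1 was its highest line, again contrary to the chromosome. Itga7, a laminin-binding integrin chain and the last gene measured at 128.40 Mb, had 6.01, 6.52, 6.01, 5.44 and 5.82 in Mes1 to Mes5, against 8.50, 9.12, 7.51, 9.11 and 8.25 in Epi1 to Epi5. Lrp1, an endocytic receptor at 126.98 Mb, differed by -2.28, the E3 ligase gene Sh3rf3 by -2.79, Lrrc75b by -2.49 and the magnesium transporter Slc41a2 by -2.11, all with no overlap between the groups. Lrrc75b differed by -1.39 on slide 2, and with normexp Sh3rf3 differed by -0.91 and Itga7 by -1.17.

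Ank3, which encodes the membrane scaffold ankyrin G, had the lowest difference of all, -4.97, but its groups overlapped through Mes1. It had 10.92, 4.14, 5.57, 7.95 and 3.28 in Mes1 to Mes5, against 10.74, 11.61, 11.29, 11.29 and 11.76 in Epi1 to Epi5. Mes1 stood at the level of the Epi lines, 5.69 above the mean of the other 4 Mes lines, and with normexp the difference of Ank3 was -2.94.

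**Figure D5:**
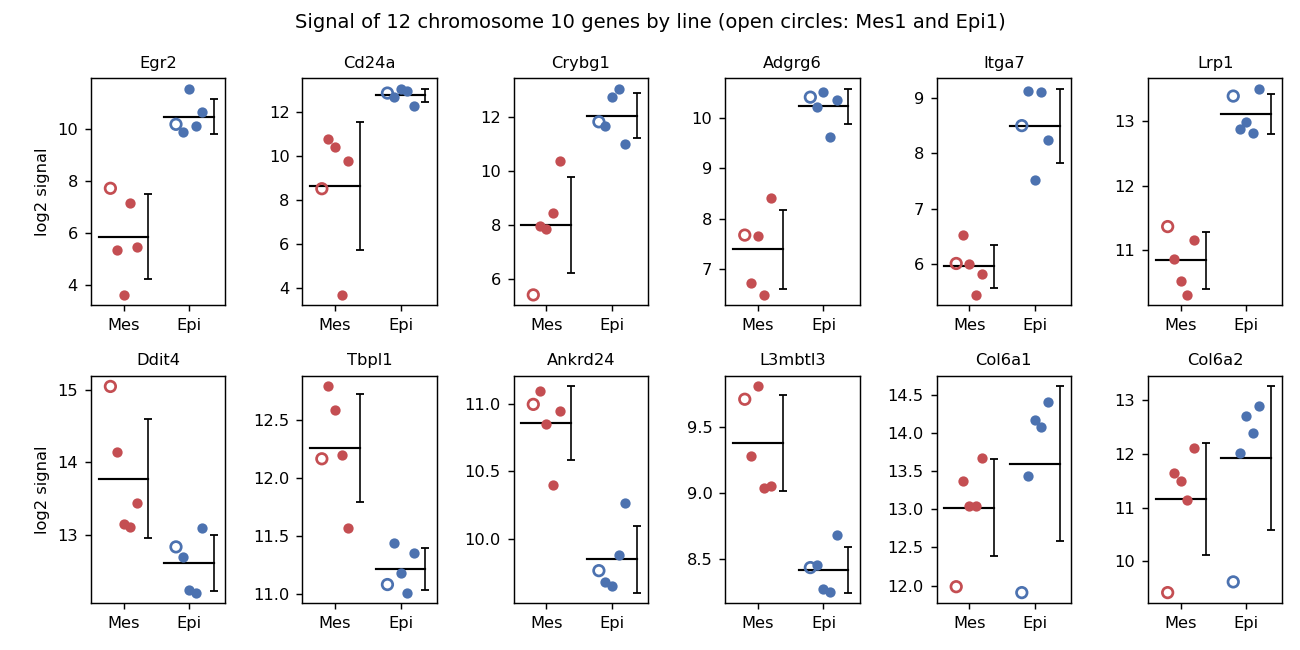
Log2 signal of 12 chromosome 10 genes in each line, with group means (bars) and 1 SD over 5 lines (error bars), and open circles for Mes1 and Epi1. Axes differ between panels and do not start at 0. In Col6a1 and Col6a2 the open circles are the lowest lines of both groups, and in all the other genes shown the groups do not overlap.

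Genes against the trend were few. Of the 523 genes after the break, 89 had a mean above 0, and 7 had every Mes line above every Epi line, all of which limma also called. Over all genes measured, 10.3% had every Mes line above every Epi line. Ddit4, a stress-induced inhibitor of mTORC1 at 59.41 Mb, had 15.05, 14.14, 13.14, 13.10 and 13.44 in Mes1 to Mes5, against 12.83, 12.70, 12.24, 12.20 and 13.10 in Epi1 to Epi5, a difference of 1.16. Mes4 and Epi5 were nearly equal in it. On slide 2 its difference was 0.43. Tbpl1, a relative of the TATA-binding protein at 22.43 Mb, had 12.17, 12.79, 12.58, 12.20 and 11.56 in Mes1 to Mes5, against 11.08, 11.43, 11.18, 11.01 and 11.35 in Epi1 to Epi5.

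Ankrd24 differed by 1.01, the methyl-lysine reader gene L3mbtl3 by 0.96 and the methyltransferase-like gene Mettl25 by 0.69, or 0.40 with normexp. A730063M14Rik (1.12, and 0.46 on slide 2) and LOC100504423 (0.57, and 0.19 on slide 2), named after their values were seen, completed the 7. Before the break Heca, at 17.62 Mb, differed by 0.68 with no overlap, and by 0.26 on slide 2. B230208H11Rik, at 12.64 Mb and also named after its values were seen, was the other such gene, with the largest difference among the 9, 2.02 (2.05 on slide 2). Both Mes1 and Epi1 lay close to their groups in Tbpl1 and Ankrd24: Mes1 minus the other Mes lines was -0.12 in Tbpl1 and 0.17 in Ankrd24, and Epi1 minus the other Epi lines was -0.17 in Tbpl1 and -0.11 in Ankrd24.

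Marchf9, Kif5a and Arhgap45 were called higher although their groups overlapped. Marchf9, an E3 ligase gene at 126.49 Mb, had 10.10, 10.02, 9.91, 9.39 and 7.82 in Mes1 to Mes5, against 8.34, 7.50, 4.35, 6.53 and 4.92 in Epi1 to Epi5, a difference of 3.12, or 1.82 with normexp. Kif5a, a kinesin heavy chain at 126.66 Mb, had 11.38, 11.78, 11.64, 11.53 and 10.82 in Mes1 to Mes5, against 6.32, 10.87, 9.87, 8.50 and 8.78 in Epi1 to Epi5. Its difference of 2.56 was 0.72 on slide 2. Marchf9, A730063M14Rik and Kif5a all lie in the last stretch of the chromosome, between Lrig3 and Pmel (125.45 to 128.16 Mb). The 66 genes of that stretch, chosen after the data were seen, had a median of -0.23, with 21 above 0. Limma called 17 of them lower and 3 higher, where 12% and 15.2% of all genes were. Cdk4, which lies among them at 126.50 Mb and drives entry into the cell cycle, was called lower, with a difference of -0.46, and -0.70 on slide 2.

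In single genes Mes1 and Epi1 lay farther from their groups, in both directions. Rab32, a small GTPase gene at 10.27 Mb, had 2.10 in Mes1 and 8.76, 9.03, 6.64 and 8.83 in Mes2 to Mes5, against 10.07, 9.68, 8.79, 8.85 and 9.11 in Epi1 to Epi5. Mes1 was also lowest of its group in Perp (-3.45 from the mean of the others), Crybg1 (-3.24), Col6a2 (-2.18) and Rgs17 (-1.63). Besides Ank3, it was farthest above the other Mes lines in the syntaxin gene Stx11 (3.94), the glutamate receptor gene Grin3b (2.67), the autophagy regulator Dram1 (2.39) and Egr2 (2.32). Some of these departures rest on signals at the bottom of the scale, where the dimmest member had a mean of 2.94. Rab32 stood at 2.10 in Mes1, Stx11 at 2.80 in Mes2 and Grin3b at 2.80 in Mes4.

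Epi1 was farthest below the other Epi lines in Kif5a (-3.19), Col6a2 (-2.89), the tautomerase gene Ddt (-2.43), the G protein gene Gnaz (-2.24) and Col6a1 (-2.11). It was farthest above them in the potassium channel subunit gene Kcnmb4 (3.21), Marchf9 (2.52), the sulfotransferase gene Chst3 (2.37), Stx11 (2.08) and Arhgap45 (1.77). With normexp the Mes minus Epi differences of dim genes among these shrank, from -1.32 to -0.24 in Chst3, -0.92 to -0.12 in Stx11 and 1.86 to 0.31 in Arhgap45. Those of brighter genes moved less, from 2.56 to 2.18 in Kif5a and staying at -0.76 in Col6a2.

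Col6a1 and Col6a2, neighbouring genes for chains of collagen VI at 76.17 and 76.06 Mb, were low in both lines. Col6a2 had 9.41, 11.64, 11.50, 11.14 and 12.12 in Mes1 to Mes5, against 9.61, 12.02, 12.70, 12.39 and 12.90 in Epi1 to Epi5. Col6a1 had 11.98, 13.37, 13.04, 13.04 and 13.67 in Mes1 to Mes5, against 11.91, 13.44, 14.17, 14.08 and 14.40 in Epi1 to Epi5. In both genes Mes1 and Epi1 were the lowest lines of all, so in Mes1 the pair went against its chromosome.

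Roles were followed through 5 lists of chromosome 10 genes. Over all genes 12% were called lower and 15.2% higher, but over the chromosome itself 38.3% were called lower and 2.46% higher. The calls of a list therefore stand first beside those of the chromosome, and no list was tested against it. Of 28 growth control genes 26 were measured, with a median of -0.26. Hdac2, Tcf3, Cdk4 and Pa2g4 were called lower, Lats1, a kinase of the Hippo pathway that lies before the break, was called higher (0.54), and 21 were not called. The histone deacetylase gene Hdac2 had 6.85, 6.35, 6.57, 6.35 and 6.47 in Mes1 to Mes5, against 7.17, 7.19, 7.54, 7.29 and 7.27 in Epi1 to Epi5, a difference of -0.77, or -0.28 with normexp. Among those not called, the kinase genes Nuak1 and Sgk1 differed by -1.12 and -0.89 (-0.27 and -2.37 on slide 2), and Ddit3, the stress factor CHOP, by 0.77.

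Matrix and adhesion genes had the lowest median of the 5 lists, -1.02 over 15 measured of 26. Dse, Marcks, Col18a1, Itgb2, Cnn2, Lrp1 and Itga7 were called lower, none was called higher and 8 were not called. Col18a1, a basement membrane collagen, and Marcks, an actin-linked substrate of protein kinase C, each differed by -1.82, and on slide 2 by -3.55 and -0.95. The kinase anchor gene Akap12, which lies before the break, was not called and differed by -2.09, with 10.16, 11.21, 11.44, 8.67 and 4.39 in Mes1 to Mes5, against 11.70, 11.72, 11.95, 9.54 and 11.44 in Epi1 to Epi5. Mes5 alone lay far below the rest in it, and without Mes5 the difference was -0.90.

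The energy metabolism list had 20 of 21 genes measured, with a median of -0.50. It was drawn broadly and also held enzymes of other metabolism, such as Amd1 and Lta4h. Amd1, Ppa1, Hk1, Pfkl, Bsg, Atp5d, Uqcr11, Slc25a3 and Lta4h were called lower, none was called higher and 11 were not called. Uqcr11, a subunit of respiratory complex III, had 14.97, 13.89, 14.26, 14.50 and 14.63 in Mes1 to Mes5, against 15.10, 15.42, 15.74, 15.86 and 15.79 in Epi1 to Epi5. Its groups did not overlap, and Mes1 and Epi1 were the nearest lines. Pfkl, a phosphofructokinase of glycolysis, had 11.06 in Mes1 and at most 9.46 in Mes2 to Mes5, against 10.18 to 11.07 in the Epi lines, so that Mes1 stood with the Epi lines. Bsg, a chaperone of lactate transporters, differed by -0.86 (-1.40 on slide 2), and the creatine synthesis gene Gamt, which was not called, by -0.89 and by 0.10 on slide 2.

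Receptors and signalling genes were measured in 19 of 30, with a median of -0.79. Ifngr1, Fyn, Psap, Egr2, Dusp6, Frs2, Rap1b, Tbk1 and Cd63 were called lower, none was called higher and 10 were not called. The cytokine signalling genes Socs2 and Stat6 were among these 10, with differences of -1.37 and -1.22, on slide 2 of -2.58 and -3.47, and with normexp of -0.71 and -0.11. Stat6 ran from 2.43 in Mes3 to 8.89 in Mes5, against 5.38 in Epi4 to 8.40 in Epi1, so its Mes lines lay both above and below all its Epi lines.

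Translation and protein folding genes were measured in 23 of 24 on the chromosome, with a median of -0.34. Cirbp, Rps15, Eef2, Os9, Naca, Rps26 and Sarnp were called lower, none was called higher and 16 were not called. Os9, a lectin of protein quality control in the endoplasmic reticulum, had 11.04, 10.57, 10.12, 10.58 and 10.55 in Mes1 to Mes5, against 11.63, 11.80, 12.07, 12.26 and 12.21 in Epi1 to Epi5, with no overlap. The ribosomal protein gene Rps26 had 16.49, 15.69, 15.79, 15.87 and 15.61 in Mes1 to Mes5, against 16.33, 16.89, 16.79, 16.74 and 16.80 in Epi1 to Epi5, and its groups overlapped because Mes1 lay above Epi1. The elongation factor gene Eef2 differed by -0.74 and the cold-inducible RNA-binding gene Cirbp by -0.99, which was -0.22 on slide 2.

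In every list the median of Mes1 lay above its group and that of Epi1 below its group. The list medians of Mes1 minus the other Mes lines were 0.28 in growth control, 0.55 in matrix and adhesion, 0.40 in energy metabolism, 0.58 in receptors and signalling and 0.38 in translation and protein folding. Those of Epi1 minus the other Epi lines were -0.34, -0.18, -0.41, -0.17 and -0.34 in the same order.

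Of the 1005 gene symbols on chromosome 10, 436 were left out because their probes were not above background throughout. Among them, 244 were above background on no array, 16 on all Mes arrays but not all Epi arrays, and 19 on all Epi arrays but not all Mes arrays. The 15 genes just outside, above background on 9 of 10 arrays, had a median difference of 0.14 (-5.71 to 2.56) with 7 below 0, and the 15 dimmest members had -0.05 (-0.61 to 0.33) with 8 below 0. The growth factor gene Inhbc was above background on all 5 Mes arrays and no Epi array, at least 2.43-fold higher in Mes lines. Conversely, 2310015B20Rik was above background on no Mes array and all 5 Epi arrays, at least 3.60-fold lower in Mes lines. Of the members, 250 had over 1 passing probe, and in 36 of these the probes differed in sign.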

How the data were processed

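RNA of 5 Mes and 5 Epi lines, grouped by title, was measured on 1-colour Agilent arrays. Intensity values were made with Agilent Feature Extraction 10.7 per the submitters' processing notes (10.7.3.1 per the file headers), background-subtracted within each array, and were deposited with control and quality flags. The authors also deposited log2 values, quantile-normalised in GeneSpring 11.0 per the series text. Both deposited tables held the same values (column medians 5.07, r = 0.9996 to 0.9999 with their own arrays). Probe genes and mm9 positions came from the authors' table. Symbols were updated by Entrez ID through RefSeq (554 members matched, 63 changed).

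After control spots (1639) and outlier-flagged spots (46 to 87 per array) were left out, spots of a probe were averaged (41174 probes), and processed intensity was quantile-normalised, floored at 1 and log2-transformed. Limma 3.58.1 (R 4.3.3) was fitted to the 24475 probes that passed background throughout either group, with Benjamini-Hochberg adjustment and a threshold of 0.05, and checked on simulated data. The precision is limited by 5 arrays per group. Segmentation was exact, with segments of at least 10 genes, up to 12 segments and a BIC penalty. Where only 1 group passed background, the fold is a lower bound: each dim array contributed its own signal or its faintest passing signal, whichever was higher.

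The chromosome, its lists and its lines were chosen with earlier results of these data known. Named genes were up to 10 farthest below and up to 10 farthest above among non-overlapping members, the 3 on either side of each break, the 5 farthest below and above in Mes1 and Epi1, and up to 4 per list by size, leaving out identifier-only names. Alternatives covered scaling, background correction, floor, filter, probe averaging, slide, replicate block, left-out lines and segmentation settings.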

Additional observations from a re-analysis of the deposited data

Results flagged for a closer look

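In groups of 5 lines, a line was singled out when its gap to the nearest other line exceeded 0.71 of the group's range, Dixon's critical value. The median signal of chromosome 10 relative to all lines singled out Mes1 among Mes lines (0.0638) and Epi1 among Epi lines (-0.0550). Over the 523 genes after the break, Mes1 (0.0420) and Epi1 (-0.0643) were singled out again, while before the break neither was. Both lines had been chosen for their departure on this chromosome, so these medians restate that choice and are no test of it.

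Of the 134 groups formed by the 67 named genes, 13 had such a line, which was Mes1 in 3 and Epi1 in 7. Chance alone singles out about 5% of groups, and some named genes had been chosen for the distance of these very lines. Mes1 was the highest Mes line in Hivep2 (8.67), Ndufa12 (14.55) and Pfkl (11.06). Epi1 was the lowest Epi line in Sar1a (13.46), Ndufa12 (14.27), Col6a2 (9.61), Ddt (10.41), Gnaz (3.09), Bsg (11.87) and Rps26 (16.33). Epi4 was the lowest Epi line in Perp (11.39) and in Akap12 (9.54), and Epi2 the highest in Grin3b (5.42). Ndufa12, a subunit of respiratory complex I, was the only named gene with a line apart in both groups.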

How the results depend on the processing

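The median Mes minus Epi difference over chromosome 10 stayed below 0 under every alternative run. It was -0.46 as reported, -0.25 when dim probes were kept, -0.63 on slide 2 alone or with slide as a fixed block, and -0.56 to -0.43 when single lines were left out. Relative to the other chromosomes it was -0.51, -0.26 with no filter, and -0.68 without Mes1 and Epi1 together, an alternative added after the data were seen. Limma's 218 lower calls became 131 among the brighter 285 genes, 144 with the replicate number as a block, 5 with slide as a block, and 152 to 249 when single lines were left out. Its 14 higher calls became 6 among the brighter genes, 0 with slide as a block (5 at an unadjusted p under 0.05), 9 without Epi4, and 9 to 21 over all left-out lines. With slide as a block, calls over all genes also fell, from 12% to 0.164% lower and from 15.2% to 0.296% higher. For the other settings no share over all genes was counted, so their counts cannot show whether a change was particular to chromosome 10. After the group mean of each probe was subtracted, same-numbered Mes and Epi lines correlated at 0.0138 to 0.0434. These values cannot show whether such lines share a tumour, which the labels do not say.

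Mes1 above its group was 0.37, and 0.28 with normexp and 0.24 with no filter. Epi1 was -0.35, and -0.28 with normexp, -0.26 with no filter and -0.39 among the brighter genes. The Mes minus Epi profile had 1 break, but 3 with normexp, 2 with no filter (at 68.67 and 85.44 Mb, none near 18 Mb), 2 without Mes1 and Epi1, and 0 with a squared-error cost. The break moved to 21.09 Mb with normexp or a floor of 16, and to 17.73 Mb among the brighter genes. The Mes1 profile had 0 breaks and 1 with no filter. The Epi1 profile had 3, and 1 with normexp or with probes above background in at least 1 group, and its first break moved from 14.38 Mb to 31.05 Mb in both. It had 2 breaks with a squared-error cost, with no filter and among the brighter genes, the first at 31.05, 33.65 and 19.33 Mb. The causes were not tested beyond the fewer genes or arrays that some settings hold. On slide 2, 79 of the 569 genes changed sign. Among the 67 named genes, none past the threshold changed sign under the alternatives run.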
